A study of Mus musculus with 8 samples.

Results

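These are the open chromatin sites that were listed in mouse granulosa cells before the ovulatory signal, had no counterpart 4 h after it, and held no peak of the nuclear receptor LRH-1 (NR5A2) at either time. They were chosen by the overlap of the 4 peak lists of the study, as the FAIRE peaks before human chorionic gonadotropin (hCG) that shared not even 1 bp with a FAIRE peak after hCG or with a LRH-1 peak before or after it. The rule gave 8093 of the 21431 FAIRE peaks before hCG (37.8%, exact binomial 95% interval 37.1 to 38.4), and they covered 7.1 Mb of the 20.1 Mb in that list (35.3%). They are called LRH-1-free closing peaks here. "Closing" stands only for absence from the list after hCG: the files give no signal at these positions after hCG, so a site that lost its signal and one that fell below the listing threshold cannot be told apart.

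FAIRE (formaldehyde-assisted isolation of regulatory elements) recovers DNA that is poorly crosslinked to nucleosomes, and its peaks are taken as promoters, enhancers and other regulatory elements. Granulosa cells surround the oocyte. The luteinising hormone surge, for which hCG stands in, ends their growth program and starts ovulation and their change into luteal cells. LRH-1 is a transcription factor of the NR5A family that is required in these cells for ovulation and luteal function.

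All mice of the chromatin groups were C57BL/6 and LRH-1 +/+, with no Cre or floxed allele named, and were 22 to 25 days old. They received 5 IU of equine chorionic gonadotropin and, for the groups after the signal, 5 IU of hCG 44 h later. FAIRE used granulosa cells freed by puncturing the ovary at 0 h and 4 h after hCG. LRH-1 was immunoprecipitated from pieces of whole ovarian tissue (n = 5 per condition), so its peaks can include sites of other ovarian cells, although the label names granulosa cells. Each of the 4 groups is labelled as 2 replicates but has 1 peak list. No spread between replicates could be measured, no difference between times was tested, and the intervals cover counting error only. Positions are in mouse build mm9, counted from 1. No genome or annotation of that build was used here, so sequences, gene names and marker genes are not given.

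The LRH-1-free closing peaks made up most of the sites that disappeared from the list. Of all FAIRE peaks before hCG, 46.2% had no counterpart after hCG and 79.2% had no LRH-1 peak at either time. Of the 9910 peaks without a counterpart, 8093 were free of LRH-1 (81.7%, 95% interval 80.9 to 82.4). The other 1817 held LRH-1, in 606 cases before hCG only, in 365 after hCG only and in 846 at both times. Among the peaks that persisted, the LRH-1-free share was 77.2% (76.4 to 77.9), and among the 11256 peaks seen only after hCG it was 86.0% (85.4 to 86.6). These shares follow from the lists that defined the members and describe how the members sit among them.

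The members were mostly low-scoring peaks. The authors' score, which ranks peaks within a list and is never below 40, had a median of 55.2 over the members, with quartiles of 46 and 71.1 and a highest value of 274. FAIRE peaks that were LRH-1-free but persisted had a median of 91, with quartiles of 60.7 and 152. Closing peaks that held LRH-1 lay between them, at 68.7 (quartiles 52.2 and 96.7). LRH-1-free peaks seen only after hCG had a median of 59.3 in their own list (quartiles 47.5 and 84.2), but scores of the 2 lists are not on a shared scale. Members with a score of at least 100 numbered 660 (8.16%), against 3957 of the 8891 persistent LRH-1-free peaks (44.5%). Only 18 members reached 200. The list before hCG held no member among its 1000 best-scoring peaks and 18 among its best 2000. The best-scoring member ranked 1061.

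The share of peaks that closed fell with the score, both with and without LRH-1. The list was divided into 10 equal groups by score, numbered from 1 for the worst-scoring to 10 for the best-scoring. In group 1, 1392 of 1862 LRH-1-free peaks closed (74.8%, 95% interval 72.7 to 76.7), compared with 179 of 282 peaks with LRH-1 (63.5%, 57.6 to 69.1). In groups 4 to 7 the intervals of both kinds overlapped. In group 9, 14.1% of LRH-1-free peaks closed (12.3 to 16) against 24.5% of those with LRH-1 (21.3 to 27.9). In group 10, 24 of 1591 LRH-1-free peaks closed (1.51%, 0.969 to 2.24), against 57 of 552 with LRH-1 (10.3%, 7.92 to 13.2). The order of both kinds thus differed between the low and the high end of the list.

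**Figure D1:**
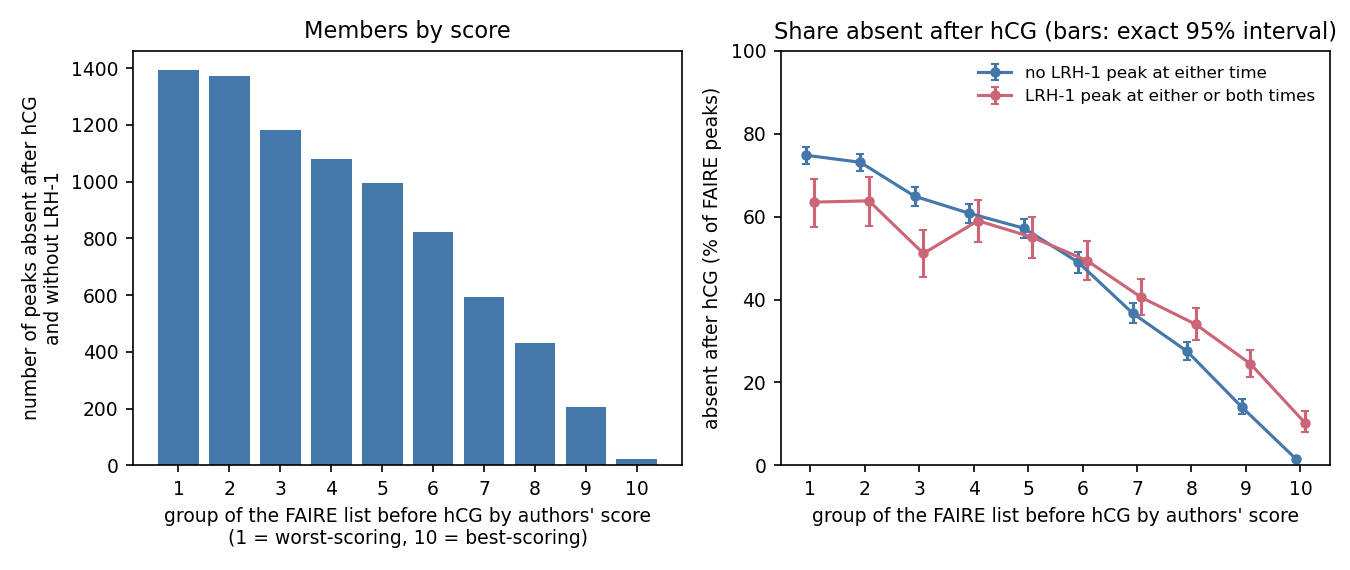
Left, the number of LRH-1-free closing peaks in each of 10 equal groups of the FAIRE list before hCG by the authors' score (bars), from 1392 in the worst-scoring to 24 in the best-scoring. Right, the percentage of peaks without a counterpart after hCG for peaks with no LRH-1 (blue) and with LRH-1 at either or both times (red), with exact 95% intervals; the blue points start above the red and end below them.

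Peaks with LRH-1 were not one class in this respect, and the LRH-1-free peaks lay inside their range. Over all scores, 67.8% of FAIRE peaks with LRH-1 before hCG only closed (606 of 894, 95% interval 64.6 to 70.8), against 47.7% of the LRH-1-free peaks (8093 of 16984, 46.9 to 48.4). The share was 37.9% for LRH-1 at both times (846 of 2233, 35.9 to 39.9) and 27.7% for LRH-1 after hCG only (365 of 1320, 25.3 to 30.2). Within scores of 60 to 80, the LRH-1-free share of 54.7% (53 to 56.3) stood below the 81.2% for LRH-1 before hCG only (74.8 to 86.5) and above the 38.1% for LRH-1 after hCG only (32.3 to 44.2). It lay below the group with LRH-1 before hCG only in each of 5 score ranges. At scores of 120 and over, the LRH-1-free share of 9.26% (8.32 to 10.3) was below that of peaks with LRH-1 at both times (19.4%, 16.8 to 22.2), and its interval overlapped that of peaks with LRH-1 after hCG only (7.45%, 4.83 to 10.9). At scores of 40 to 50 the order against peaks with LRH-1 at both times was the opposite, at 73.4% (72 to 74.7) and 61.6% (55 to 67.9).

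**Figure D2:**
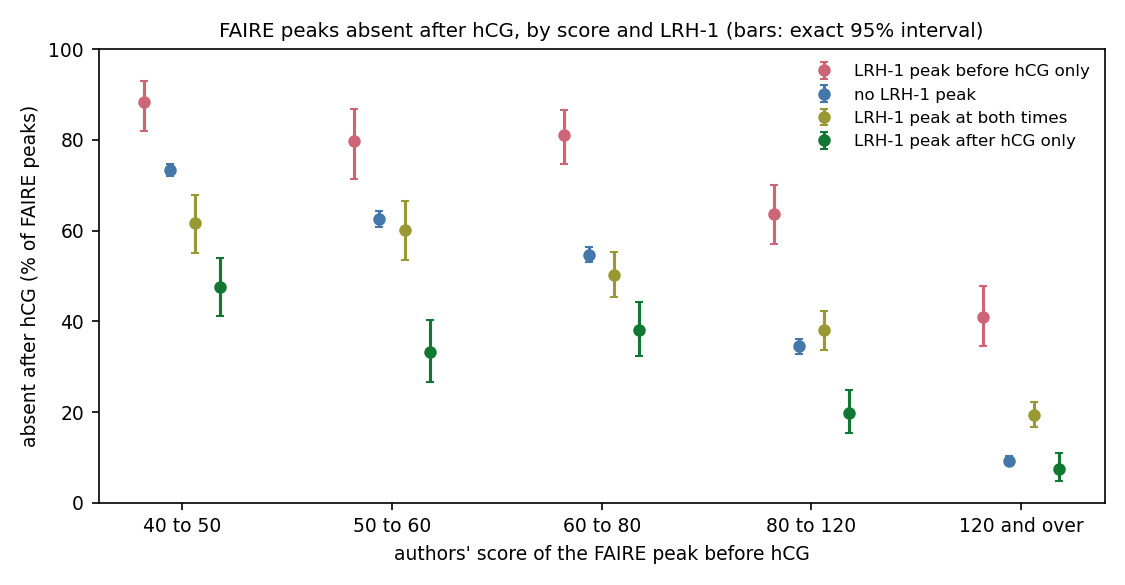
Percentage of FAIRE peaks before hCG with no counterpart after it (y axis) in 5 ranges of the authors' score (x axis), by the LRH-1 peaks they held; points are shares and bars exact 95% intervals. Peaks with LRH-1 before hCG only are highest in every range, and LRH-1-free peaks run from 73.4% to 9.26%.

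The 10 best-scoring members show what the strongest of these sites look like. Their scores ran from 224 to 274 and their widths from 855 to 1250 bp. The first was a peak of 976 bp on chromosome 1 at chr1:186270630-186271605 (score 274). Its nearest FAIRE peak after hCG lay 334241 bp away, but a LRH-1 peak after hCG lay 5436 bp away. Next came chr14:28823450-28824618 (score 259), 268105 bp from any FAIRE peak after hCG and 112236 bp from any LRH-1 peak. A peak of equal rounded score at chr7:96793237-96794196 had a FAIRE peak after hCG at 18660 bp and a LRH-1 peak before hCG at 7872 bp. None of these 3 sites had a FAIRE peak after hCG within 10 kb.

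The remainder of the 10 differed widely in their surroundings. The peak at chr3:80957900-80958946 (score 254) lay 123881 bp from the nearest FAIRE peak after hCG, and those at chr9:32747984-32749233 (score 247) and chr4:87921464-87922567 (score 244) lay 153926 and 69662 bp from it. The peak at chr5:151656866-151657950 (score 250) was the opposite case: a FAIRE peak after hCG with a score of 78.3 began only 67 bp beyond its end. The peak at chr11:105295805-105296659 (score 237) had a persistent site 4135 bp away and a LRH-1 peak before hCG at 7674 bp. The peak at chr1:162298756-162299859 (score 233) had another member 7488 bp away, and that at chr10:53402599-53403537 (score 224) had one at 30623 bp. Over the 10, the distance to the nearest LRH-1 peak ran from 5436 to 442249 bp, with a median of 72160 bp.

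Peaks just inside and just outside the overlap rule were few. A FAIRE peak after hCG lay within 50 bp of 13 members, whose median score was 58.3, and 3 persistent LRH-1-free peaks shared 50 bp or less with their counterpart, with a median score of 44. Outside chromosome 18, the best-scoring just inside was chr5:151022743-151023696 (score 130), 50 bp short of a peak with a score of 57.8 after hCG. Those at chr1:186674926-186675792 (score 90.3) and chr10:83098737-83099685 (score 74.7) each missed a peak after hCG by 40 bp. Just outside were chr6:143123524-143124422 (score 52.9, overlap 19 bp), chr1:194710242-194710944 (score 44, overlap 1 bp) and chr1:57493713-57494387 (score 43.3, overlap 40 bp).

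Members lay about as far from the sites listed after hCG as from the other sites listed before it. The median distance, edge to edge, from a member to the nearest FAIRE peak after hCG was 24442 bp (binomial 95% interval of the median 23553 to 25325), with quartiles of 8578 and 62169 bp. To the nearest other FAIRE peak before hCG it was 25055 bp. Closing peaks with LRH-1 stood 20395 bp (18553 to 22021) from a FAIRE peak after hCG, and LRH-1-free peaks seen only after hCG stood 21922 bp (21365 to 22777) from one before it. A FAIRE peak after hCG lay within 1 kb of 310 members (3.83%, 95% interval 3.42 to 4.27) and within 10 kb of 2249 (27.8%, 26.8 to 28.8). For the 310 members with such a peak within 1 kb, the nearest one was seen only after hCG in 194 cases (62.6%, 56.9 to 68). Over all members this held for 49.5% (48.5 to 50.6), and 49.4% of all peaks after hCG were seen only then. The rule itself bears on the share within 1 kb, so it cannot be read against the other 2. A nearby peak that was also present before hCG must overlap a second FAIRE peak before hCG. Another FAIRE peak before hCG lay within 1 kb of only 2.83% of members. Sites seen only after hCG lay within 1 kb of 195 members (2.41%, 2.09 to 2.77), against 171 of the persistent LRH-1-free peaks (1.92%, 1.65 to 2.23). The intervals overlap. The score of a member said little about this distance: the share with a FAIRE peak after hCG within 10 kb was 27.6% at scores of 40 to 50 and 27.5% at scores of 120 and over.

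Some members lay in stretches with few listed open sites at either time. Members outside chromosome 18 that scored at or above the list's median of 70.5 were ranked by distance from any FAIRE peak after hCG. The farthest was chrX:123855406-123856533 (score 102), at 1787851 bp. It was also 1253860 bp from any other FAIRE peak before hCG. The next were a pair on chromosome 3, chr3:113662745-113663615 (score 80.9) and chr3:113633272-113634309 (score 82.3), at 1517825 and 1488352 bp. The pair lay 28435 bp apart, and the nearest FAIRE peak that persisted was 1681973 and 1711279 bp from them.

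Over all scores, LRH-1 peaks were farther from the members than from other LRH-1-free sites. At like scores the intervals overlapped, though in some ranges the medians still differed in the same direction. The nearest LRH-1 peak of either time lay a median of 53249 bp away (50948 to 55912), compared with 44373 bp for persistent LRH-1-free peaks (43095 to 45924) and 42432 bp for LRH-1-free peaks seen only after hCG (40587 to 44080). Near misses were rare, with a LRH-1 peak within 1 kb of 167 members (2.06%, 1.76 to 2.4) against 3.05% of persistent LRH-1-free peaks (2.7 to 3.43). Within each of 5 score ranges the intervals of members and persistent LRH-1-free peaks overlapped. The medians were nearly equal at scores of 40 to 50, at 55598 bp (51931 to 60664) and 55744 bp (49505 to 61104). So were those at 80 to 120, at 45808 bp (39906 to 52547) and 45885 bp (42613 to 49399). In the other ranges the members' median was the larger. It was 55192 bp (49224 to 60270) against 45837 bp (41958 to 50809) at 50 to 60. At 60 to 80 it was 53164 bp (48402 to 58279) against 48641 bp (44724 to 53426). At 120 and over it was 47454 bp (37509 to 58458) against 38544 bp (36233 to 40933). The share within 1 kb of a LRH-1 peak was lower for members in each of the 5 ranges, for example 1.73% (1.19 to 2.42) against 3.04% (2.25 to 4.01) at 60 to 80. Members were also farther than persistent LRH-1-free peaks from the next FAIRE peak before hCG, at medians of 25055 bp (24264 to 25923) and 21245 bp (20681 to 21906). The nearest LRH-1 peak was one seen only before hCG for 20% of the members (19.2 to 20.9), 16% of persistent LRH-1-free peaks (15.3 to 16.8) and 17.2% of LRH-1-free peaks seen only after hCG (16.5 to 18). It was one seen only after hCG for 46.9% (45.8 to 48), 50.1% (49.1 to 51.2) and 50.3% (49.3 to 51.3). The LRH-1 list after hCG was the longer one, with 9413 against 5886 peaks.

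**Figure D3:**
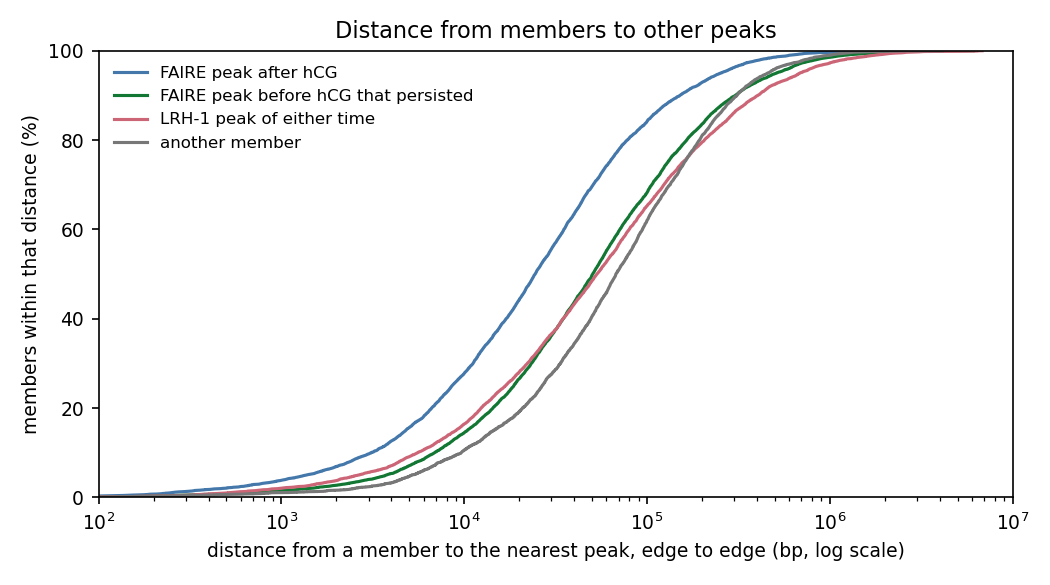
Cumulative percentage of the LRH-1-free closing peaks (y axis) within a given edge-to-edge distance (x axis, bp, log scale) of the nearest FAIRE peak after hCG, persistent FAIRE peak, LRH-1 peak of either time and other member. The curve for FAIRE peaks after hCG lies to the left, with a median of 24442 bp, and that for other members has a median of 67560 bp.

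At a distance of 10 kb, most members had no other member beside them. Another member lay within 10 kb of 854 (10.6%, 9.89 to 11.2), against 13.4% for persistent LRH-1-free peaks (12.7 to 14.1) and 17.2% for LRH-1-free peaks seen only after hCG (16.5 to 18), classes of 8891 and 9681 peaks. With each class reduced to 8093 peaks, the shares were 12.2% and 12.7% for the best-scoring and the worst-scoring persistent peaks and 15.2% and 13.5% for those seen only after hCG. All 4 remained above that of the members. The members' share changed little with their score, from 10% to 11.3% over 5 score ranges. Joined at gaps of up to 10 kb, 7239 members stood alone (89.4%), 774 formed pairs, 63 formed groups of 3 and 17 formed 4 larger groups.

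**Figure D4:**
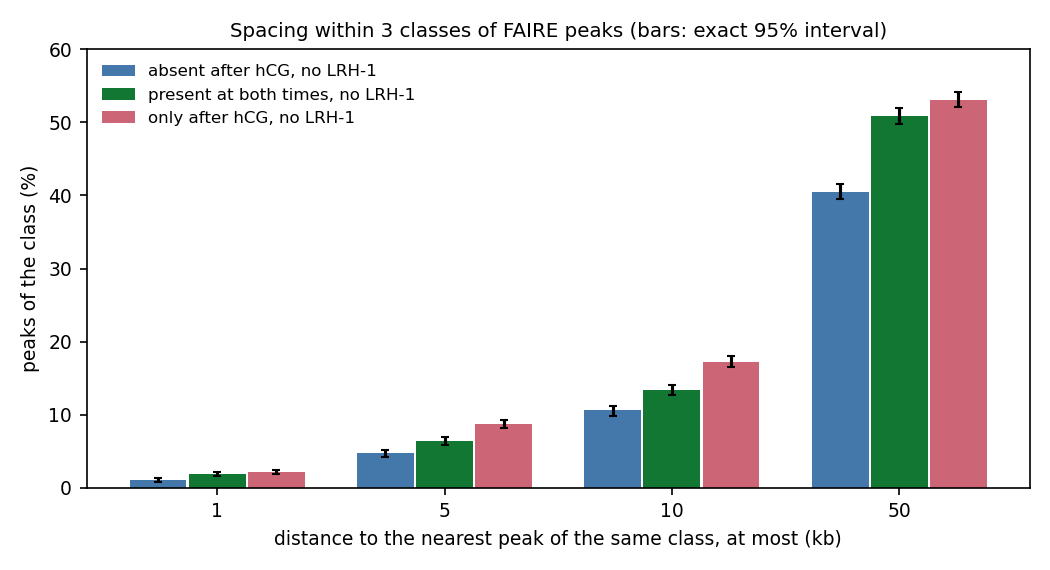
Percentage of peaks (y axis) that have another peak of the same class within 1, 5, 10 or 50 kb (x axis), for LRH-1-free peaks that closed, persisted or were seen only after hCG; bars are shares with exact 95% intervals. At each distance the closing class has the lowest share (10.6% at 10 kb) and the class seen only after hCG the highest.

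The largest of these groups held 5 members over 28.1 kb on chromosome 6, from chr6:121106115-121106705 (score 40.5) to chr6:121133337-121134182 (score 44.8). Its strongest site was chr6:121120963-121121810, with a score of 103, and it also held 1 persistent peak. On chromosome 14 a group of 4 began with chr14:66585118-66586101 and chr14:66586893-66587920, with scores of 70.2 and 96.2, and held 1 peak seen only after hCG. A group of 4 on chromosome 4, from 101112307 to 101131540, had scores of 40.5 to 75.4 and held no other FAIRE or LRH-1 peak of either time. The other group of 4, on chromosome 13 from 41414419 to 41442100, had scores of 41.2 to 111 and held 3 LRH-1 peaks, 1 closing peak with LRH-1, 1 persistent peak and 1 peak seen only after hCG. The window of 1 Mb with the most members, on chromosome 14 from 66000001 to 67000000, held 13 of them among 24 FAIRE peaks before hCG, with 10 LRH-1-free peaks that appeared after hCG. A further 11 windows held 12 members each. The first of these by chromosome name, on chromosome 1 from 88000001 to 89000000 and on chromosome 10 from 19000001 to 20000000, held 14 and 4 persistent LRH-1-free peaks and 5 and 9 LRH-1-free peaks that appeared after hCG. In each of these 3 windows, sites that closed, persisted and appeared lay side by side.

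Longer uninterrupted losses were uncommon. In the order of all 32687 FAIRE sites of both times, 4303 members (53.2%) had no member as a direct neighbour. There were 16 runs of 6 or more members, with 1.32% of the members. The larger class of LRH-1-free peaks seen only after hCG had 35 such runs (2.46% of its peaks), and 46.8% of its peaks stood singly. Persistent peaks with or without LRH-1, also a larger class, had 100 (5.97%), and 39.1% stood singly. Of all neighbours of members, 27.5% were members, which make up 24.8% of the sites, and 33.8% were persistent peaks, which make up 35.2%. The longest runs had 10 members each. The one on chromosome 17, from 37394672 to 40522154, had scores of 50.8 to 110, and that on chromosome X, from 106302230 to 109722344, had scores of 43 to 84.5. They spanned 3.13 and 3.42 Mb and held no LRH-1 peak. A FAIRE peak after hCG, or one of either time that held LRH-1, would have ended a run, so the absence of both follows from the definition. Only LRH-1 peaks outside all FAIRE peaks could have lain within a run. The next longest, 8 members on chromosome 6 from 138101441 to 139526677, had scores of 40.7 to 135 and held 1 LRH-1 peak. A run of 6 on chromosome 1, from 54043020 to 54184444, was far denser, at 0.141 Mb, with scores of 41.7 to 98.6.

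The share of LRH-1-free peaks that closed differed between chromosomes, mostly along with the scores of their peaks. It ran from 41.9% on chromosome 11 (478 of 1140, 95% interval 39 to 44.9) to 54.5% on chromosome X (194 of 356, 49.2 to 59.8). Chromosomes 7, 8 and 19 were also low, at 42.1%, 42.3% and 42.9%. For comparison, each peak was given the rate at which LRH-1-free peaks of its score group, of the 10 above, closed over all chromosomes. By these rates the shares would run from 42.7% on chromosome 7 to 51.1% on chromosome X. The observed share departed from this by -3.71 percentage points on chromosome 8, where 46.1% lay outside the interval of 39 to 45.7, and by at most 3.44 points in the other direction, on chromosome X. On 19 of 20 chromosomes the value from the scores lay within the interval. The rates came from these same peaks, each chromosome's own included, so the value from the scores is drawn toward the observed share. Whether the departure on chromosome 8 exceeds counting error was not tested.

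**Figure D5:**
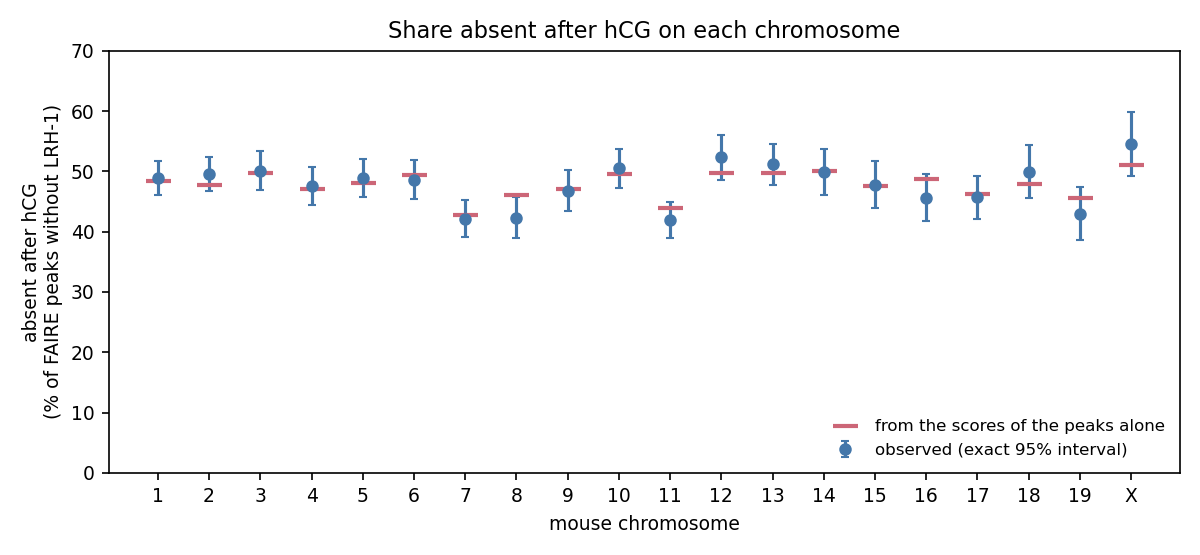
Percentage of LRH-1-free FAIRE peaks before hCG with no counterpart after it (y axis) on each chromosome (x axis), as observed (blue, exact 95% interval) and as given by the scores of the peaks alone (red dashes). Observed values run from 41.9% to 54.5%, and chromosome 8 is the one whose dash lies outside its interval.

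Over all scores, members were slightly narrower than persistent peaks. Their median width was 876 bp (872 to 880), against 929 bp (925 to 933) for persistent LRH-1-free peaks and 939 bp (932 to 950) for closing peaks with LRH-1. LRH-1-free peaks seen only after hCG were narrow as well, at 866 bp (862 to 870). At like scores the order of members and persistent LRH-1-free peaks changed with the score. At 40 to 50, which held 37.4% of the members, members had a median of 814 bp (809 to 823) against 842 bp (834 to 851). At 50 to 60, with 21.9% of the members, it was 877 bp (869 to 883) against 886 bp (876 to 894), and these intervals overlap. Both stood at about the same width at 60 to 80 (914 and 913 bp). At 80 to 120 the members were the wider ones, at 967 bp (954 to 977) against 942 bp (935 to 950). Closing peaks with LRH-1 were wider than members in each of the 5 score ranges by their medians, for example 1008 bp (995 to 1020) at 80 to 120.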

How the data were processed

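Per the submitters' processing notes, FAIRE and ChIP reads were aligned with BWA to mm9, and MACS2 2.1.0 and bedtools are named for the ChIP. FAIRE peak names begin with "MACS_peak"; version and settings are not given in the sources used here, nor is pooling of replicates or read depth. The deposited FAIRE lists give a score per peak. The authors' LRH-1 lists give a score, a fold enrichment ratio and the −log10 of the p and q values. Peak numbers run to 23412 for the 22791 FAIRE peaks after hCG, so 621 numbered peaks are not listed. In the list before hCG they run to 22006 for 21431 peaks, with 575 not listed. The filter is not given. Of the members, 313 (3.87%) lie where numbers are skipped in the list after hCG.

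Overlaps, distances and exact (Clopper-Pearson) intervals were computed with numpy 2.4.6, scipy 1.17.1 and pandas 2.3.3 under Python 3.11.15. The overlap code was tested on simulated intervals, and bedtools 2.31.1 also gave 8093 members. The members and comparisons were chosen with earlier results of these data known. Named regions are the 10 best-scoring members, the 3 fullest 1 Mb windows, the 3 better-scoring members farthest from a FAIRE peak after hCG, and the 3 best-scoring on each side of the overlap rule. Regions on chromosome 18 were passed over in these choices. It held 0 of the 10 best-scoring members. Groups and runs of members were chosen after their values were seen. Estimated counts of RNA were not analysed here, because transcripts could not be placed beside mm9 peaks. Motifs were not searched.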

Additional observations from a re-analysis of the deposited data

How the results depend on the processing

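Of 33 alternatives, 18 kept a count within 1.5 times or a value within its counting interval. The number of members stayed between 6436 (peaks within 5 kb counted as shared) and 11674 (only the better-scoring part of the FAIRE list after hCG), except that the better-scoring part of the list before hCG gave 2075, as 25.6% of the members score at or above that list's median. For that part the median score was 87.5, the median width 960 bp, the share within 10 kb of another member 2.99% and the median distance to a FAIRE peak after hCG 23078 bp. The 2.99% counts only the 2075 as neighbours of each other. With all members counted as neighbours, the share was 10.2% at scores of 80 to 120 and 10.6% at 120 and over. Asking that 50% of a peak be covered, which few LRH-1 peaks are wide enough to do, gave 9881 members, 57.3, 893 bp, 13.6% and 22940 bp. Counting peaks within 5 kb as shared gave a share of 8.72% and a distance of 33610 bp, and within 500 bp a distance of 25361 bp. Measured between midpoints the distance was 25360 bp. Another member lay within 5 kb of 4.72% and within 50 kb of 40.5%. Leaving out the 313 members at skipped peak numbers, and the distances under other overlap and score rules, were added after the data were seen. The alternatives for motifs and for neighbouring transcripts were not run. No paired analysis was possible because each group has 1 peak list. Read depth limits which weak sites can be listed and is not known here.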

Other observations

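In 5 windows of 1 Mb with at least 5 members, every FAIRE peak before hCG was a member (chromosome 18 was not searched). They were few: over all chromosomes, 630 windows held 5 to 9 members and 69 held 10 to 19. Members made up 37.8% of all FAIRE peaks before hCG. The fullest, on chromosome 4 from 13000001 to 14000000, held 6 members, 1 LRH-1-free peak seen only after hCG and no LRH-1 peak. The window on chromosome 17 from 40000001 to 41000000 held 5 members and no other FAIRE or LRH-1 peak of either time. The window on chromosome 5 from 28000001 to 29000000 held 5 members beside 3 LRH-1 peaks before and 1 after hCG. Chromosome X carried 2.4% of the members against 1.82% of the persistent LRH-1-free peaks, a ratio of 1.32 (1.14 to 1.51 from the counting error of the members alone). Against all FAIRE peaks before hCG the ratio was 1.25. Of the LRH-1-free peaks before hCG, 54.5% closed on X (49.2 to 59.8) against 47.5% on the autosomes (46.7 to 48.3). Those on X scored lower (median 63.5) than those on the autosomes (67.3). Within each of 5 score ranges the intervals of the closing share overlapped, but X had only 51 to 99 peaks per range. The share on X was the higher one except at 80 to 120 (33.3% against 34.5%). At 50 to 60 it was 75% (62.1 to 85.3) against 62.3% (60.5 to 64.1).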
